A study of Mus musculus with 11 samples.

Results

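The 372 promoter windows described here were in the top range of ISL1 values in embryonic mouse pancreas and had a value of 0 after birth. ISL1 is a LIM-homeodomain transcription factor needed for islet cells to mature and survive. It was mapped by CUT&Tag: an antibody brings a transposase to the bound protein, and the DNA beside it is cut and tagged for sequencing. The windows were chosen by their deposited values, 5 or more at the embryonic stage E14.5 and exactly 0 at postnatal day 9 (P9), and they are 372 of the 22332 windows in the ISL1 file (1.67%). They were then joined by gene identifier and by position to regions of 2 histone marks measured at P9. H3K27ac is a mark of active promoters and enhancers. H3K27me3 is the mark that Polycomb complexes lay down over silent developmental genes.

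The series held 11 libraries. ISL1 was profiled in Control cells, from 2 libraries at E14.5, given as 1 column, and 1 library at P9. Each histone mark was profiled at P9 in 2 Control and 2 Isl1CKO libraries. Control animals were Isl1loxP/+;Neurod1-cre, so they too had lost 1 Isl1 copy wherever Cre had acted, and Isl1CKO animals were Isl1loxP/loxP;Neurod1-cre. Both carried the Ai14 tdTomato reporter, and the labels describe a C57BL/6 background and both sexes. Cre was driven by Neurod1, which is active in endocrine progenitors and islet cells and also in neurons and gut endocrine cells. Each P9 library came from about 20000 sorted tdTomato-positive cells of a pool of 3 to 4 pancreases. A change in the mix of cell types and a change within each cell cannot be told apart in such pools.

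As background, endocrine progenitors of the embryonic pancreas pass through a short Neurog3-driven stage, leave the cell cycle and switch on Neurod1, Insm1, Pax6 and Isl1. ISL1 is present from that stage on and persists in alpha, beta, delta and PP cells. LIM-homeodomain proteins recognise DNA through a core of TAAT and act together with other factors, among them LDB1.

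Promoters of 4 genes show the range of sequence under these windows. They come from RefSeq (GRCm38.p6), run from 250 bases before to 50 after a gene start, and are written 5′ to 3′ on the gene's strand. Capitals mark TAAT or, from the other strand, ATTA. Smdt1 (chr15:82345796-82346095, plus strand) and Phf10 (chr17:14961211-14961510, minus strand) have the highest E14.5 values among members with an entry. Isl1 itself (chr13:116309639-116309938, minus strand) and Wnt11 (second of its 2 entries, chr7:98838595-98838894, plus strand) were chosen after the values were seen, as an islet regulator and as a window with H3K27me3 and no H3K27ac.
Smdt1: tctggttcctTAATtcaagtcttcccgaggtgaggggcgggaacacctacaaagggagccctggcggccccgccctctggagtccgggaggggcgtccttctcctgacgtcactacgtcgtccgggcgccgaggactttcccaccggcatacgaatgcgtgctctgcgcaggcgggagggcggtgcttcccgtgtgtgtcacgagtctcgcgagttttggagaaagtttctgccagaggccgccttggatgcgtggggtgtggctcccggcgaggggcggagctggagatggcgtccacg
Phf10: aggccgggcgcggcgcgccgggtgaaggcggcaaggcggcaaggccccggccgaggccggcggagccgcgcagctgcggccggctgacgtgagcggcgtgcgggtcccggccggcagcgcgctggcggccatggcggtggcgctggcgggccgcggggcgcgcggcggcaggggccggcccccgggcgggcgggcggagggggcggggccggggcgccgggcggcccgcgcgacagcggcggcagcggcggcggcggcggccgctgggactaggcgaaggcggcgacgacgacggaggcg
Isl1: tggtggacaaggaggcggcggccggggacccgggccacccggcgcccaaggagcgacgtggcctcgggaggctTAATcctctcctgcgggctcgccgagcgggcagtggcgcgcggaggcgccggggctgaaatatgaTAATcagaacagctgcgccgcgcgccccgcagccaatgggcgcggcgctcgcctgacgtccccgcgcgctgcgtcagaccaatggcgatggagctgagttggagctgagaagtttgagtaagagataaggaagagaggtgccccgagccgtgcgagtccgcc
Wnt11: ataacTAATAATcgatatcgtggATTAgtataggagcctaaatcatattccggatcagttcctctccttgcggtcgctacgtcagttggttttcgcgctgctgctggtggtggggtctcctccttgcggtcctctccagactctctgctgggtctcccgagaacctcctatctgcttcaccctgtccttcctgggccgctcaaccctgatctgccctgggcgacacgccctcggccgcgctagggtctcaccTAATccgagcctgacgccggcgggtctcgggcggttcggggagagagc
The Smdt1 promoter holds 1 such match, Phf10 none, Isl1 2 and this Wnt11 entry 4. The other Wnt11 entry holds none and is 71.3% G and C with 45 CpG dinucleotides, against 59.3% and 23 in the printed one. Phf10 is 87.0% G and C with 62.

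The ISL1 values that chose the windows were low for nearly all of them. The median at E14.5 was 5, the lowest value the rule admits; 188 windows stood at 5 and 98 at 6. In all, 350 (94.1%) lay between 5 and 8, and 11 were above 10. The files do not give the unit of these whole numbers, and neither stage has a replicate value, so they are given as a description and without a test. Over all windows they summed to 16668 at E14.5 and 2255 at P9, a ratio of 0.135. At that ratio an E14.5 value of 5 corresponds to 0.68 at P9, so for most of these windows a P9 value of 0 cannot be told apart from equal binding at a lower depth, and "strong" is used below only for a value of 5 or more. At the same ratio Cyb5r3 would have 8.93 and Smdt1 4.46 at P9, and Hinfp more than either, and each is at 0. These 3 were picked as the highest E14.5 values and P9 has 1 library, so a loss of binding there was not tested. Of the 460 windows at 5 or more, 80.9% had a P9 value of 0, against 91.1% of all windows and 93.3% of windows at 0 at E14.5. A P9 value of 0 was thus less common among strong E14.5 windows than among the rest.

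**Figure D1:**
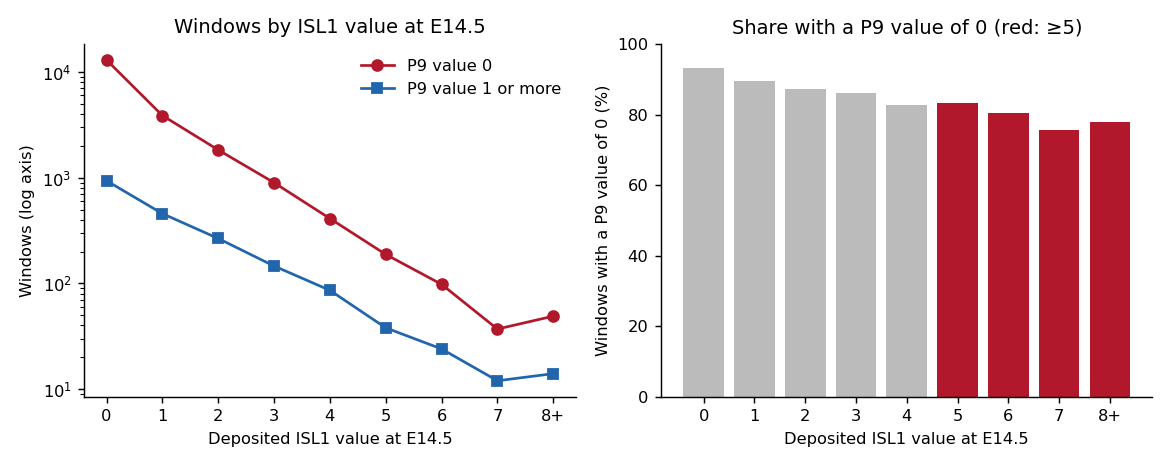
Left, number of windows (log axis) with a P9 value of 0 or of 1 or more, by the deposited ISL1 value at E14.5. Right, percent of windows with a P9 value of 0, red from a value of 5 on; the share falls from 93.3% at an E14.5 value of 0 to 77.8% at 8 or more.

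A few windows stood far above the rest. Hinfp, a zinc-finger activator of histone H4 genes, had 133 at E14.5 (GRCm39, chr9:44213969-44219968). Cyb5r3, the NADH-cytochrome b5 reductase, had 66 (chr15:83053794-83059793). Smdt1, a subunit of the mitochondrial calcium uniporter, had 33. These 3 held 1.39% of the E14.5 total. Phf10, a chromatin remodelling subunit, followed at 16, Bbx, an HMG-box protein, at 15, Msh5, a meiotic recombination factor, at 14 and Abcg4, a lipid transporter, at 13. Brd2, a reader of acetylated histones, Bud23, an rRNA methyltransferase, and Mapk13, a p38 kinase, were at 12. Rhot2, which links mitochondria to motors, was at 11 in a window of 27224 bases that holds 10 genes. Fuom, a fucose mutarotase, was at 10, and Cep152, a centriole protein, Cited2, a transcriptional co-regulator, and the homeobox gene En2 were at 9. Isl1 itself stood at 9.

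Both thresholds cut through dense values. Just below, 411 windows had 4 at E14.5 and 0 at P9, among them 5033430I15Rik, A330074H02Rik, Aamp and Abhd15. On the P9 side, 70 windows at 5 or more had a P9 value of 1, among them Anapc2 (7 at E14.5), Asxl1 (6), Barhl2 (5) and Camkk1 (5), and 18 had more than 1. The strongest window kept out by its P9 value, found after the values were seen, was Bcar3, with 46 at E14.5 and 2 at P9. Fev, a transcription factor of endocrine progenitors, had 14 and 2.

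The windows do not overlap each other but differ in width and gene content. Most are 6000 bases, and 110 of the 372 (29.6%) are wider, against 12.3% of all windows. More than 1 gene lay in 225 (60.5%), against 44.9% of all, so a window's symbol names 1 of its genes. A summed value grows with width; the per-window E14.5 value was not divided by it in the rule. Chromosome X held 1 member among 859 windows, whereas chromosome 17 held 26 among 937 (2.78%). Of the 363 members found by symbol in the RefSeq gene table, 359 were protein coding.

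The promoters of these genes were rich in G, C and CpG and poor in homeodomain cores. Entries were found for 286 of the 372 members, which gave 385 promoters; Hinfp and Cyb5r3 have no entry. Their median GC content was 66.0%, against 52.7% over all 32851 promoters of the table. The median CpG count was 26 in 300 bases, against 7. TAAT on either strand was present in 32.5% of member promoters and 58.0% of all promoters. The longer TAATTA, which contains TAAT, was in 2 (0.519%, those of Hand2 and Pth1r) against 5.29%, and CTAATG, which also contains it, in 5.19% against 7.36%. GGGCGG, the GC box, was in 71.9% against 35.7%. Against the 17179 promoters of all ISL1 windows the gaps were smaller: the median CpG count there was 14, TAAT was in 49.5%, TAATTA in 3.93%, CTAATG in 6.01%, GGGCGG in 49.4%, CATCTG in 14.2% and TGTTTAC in 2.83%. Among members, CATCTG, an E-box form, was in 11.4% (17.2% of the whole table), TGTTTAC, the forkhead core, in 2.86% (3.65%), and CCAAT in 37.1% (37.4%).

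GC content itself moves with the ISL1 value, and AT-rich cores are rarer in GC-rich sequence; its part in these shares was not tested. The 83 promoters of strong windows with a P9 value of 1 or more were close to the members, with a median of 25 CpG and TAAT in 34.9%. At 1 to 4 at E14.5 and 0 at P9 the values were 20 CpG and 40.7%, and at 0 at both stages 7 CpG and 58.2%. Within the members, TAAT was in 30.3% of the 290 promoters whose window held H3K27ac alone, in 29.6% of 54 with both marks and in 59.4% of 32 with H3K27me3 alone. A match says only that the letters are present, and the windows reach well beyond these 300 bases.

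**Figure D2:**
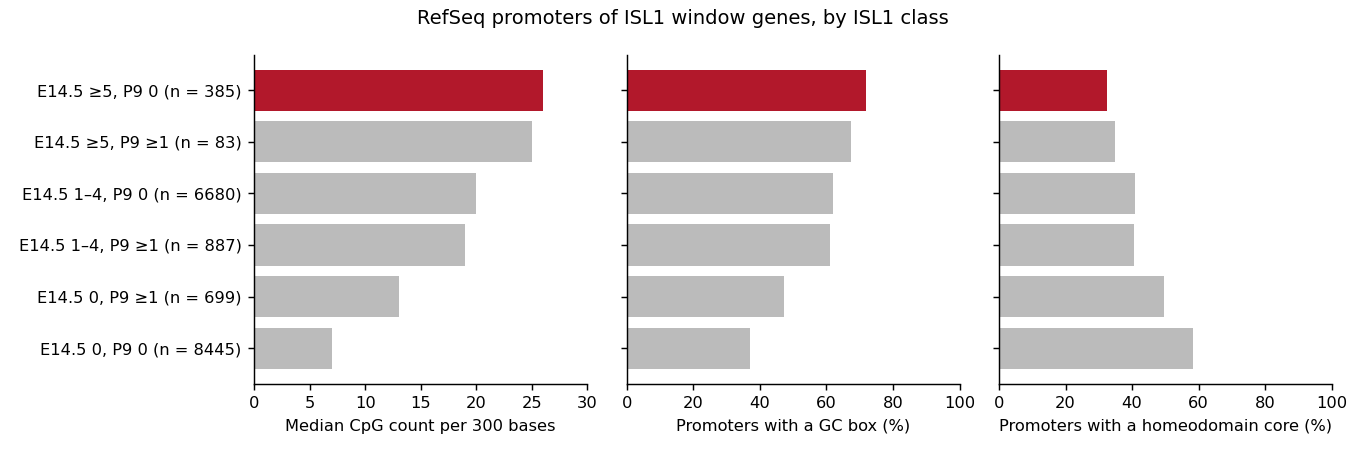
Median CpG count, percent of promoters with GGGCGG (GC box) and percent with TAAT (homeodomain core) in 300-base RefSeq promoters, by ISL1 class; red marks strong E14.5 windows with a P9 value of 0 (n = 385 promoters). CpG and GC-box values fall, and TAAT shares rise, from this class to windows at 0 at both stages.

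Most of these promoters carried active chromatin at P9. An H3K27ac region overlapped 325 of the 372 windows (87.4%) by at least 1 base, against 45.2% of all windows. An H3K27me3 region overlapped 94 (25.3%), against 15.8%. H3K27ac alone was found in 268 windows, both marks in 57, H3K27me3 alone in 37 and neither in 10. The last 10 were Cep152, Gm49344, 1700057G04Rik, Gm37834, Nudt11, Anp32a, Atp8b2, Kap, Ppp1r13l and Hspa5. In windows of exactly 6000 bases the shares were 84.7% for H3K27ac and 26.7% for H3K27me3. Joined by gene identifier instead, 282 members (75.8%, 95% Wilson interval 71.2 to 79.9) had an H3K27ac region, against 44.4% of all windows. For H3K27me3 it was 91 (24.5%, 20.4 to 29.1) against 19.2%, a smaller gap than by overlap; these intervals cover counting error only.

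The H3K27ac share differed more with the E14.5 value than with the P9 value. It was 84.1% in the 88 strong windows with a P9 value of 1 or more, 74.9% in windows at 1 to 4 and 0, 39.1% in windows positive at P9 only and 26.3% at 0 at both. The H3K27me3 share also differed with the P9 value: 25.3% of members had it, against 45.5% of the strong windows with a P9 value above 0, and 21.4% against 42.2% at 1 to 4. These shares are descriptions without a test, and no histone library was made at E14.5.

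**Figure D3:**
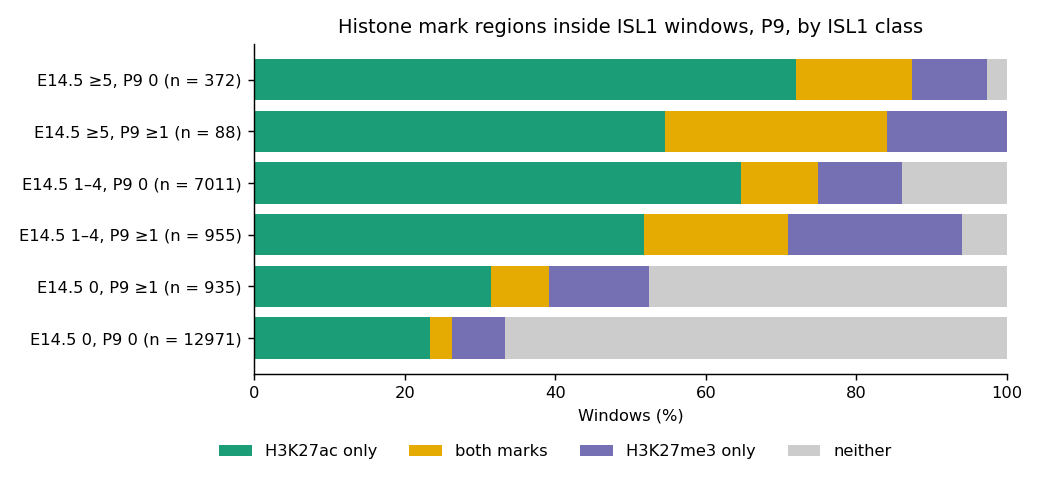
Percent of windows that a deposited P9 region of H3K27ac only, both marks, H3K27me3 only or neither overlaps, by ISL1 class (n windows). The top bar, strong at E14.5 and 0 at P9, has 72.0% H3K27ac only and 9.95% H3K27me3 only.

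Median H3K27ac per window, as CPM (counts scaled to a common library size) summed over the regions that overlap it, was 85.3 and 70.7 in the Control libraries and 95.9 and 92.1 in the Isl1CKO libraries. The 268 windows with H3K27ac alone had 117 and 84.1 against 124 and 116. The 57 with both marks had less, 32.4 and 37.8 against 38.0 and 35.8. Their median H3K27me3 was 117 and 131 CPM in Control and 65.8 and 83.3 in Isl1CKO. The 37 windows with H3K27me3 alone had 548 and 574 in Control and 495 and 489 in Isl1CKO. In both H3K27me3 classes the 2 Isl1CKO medians lay under the 2 Control medians. The medians over all windows with H3K27me3 had the same order, 80.2 and 74.0 CPM in Control against 67.5 and 68.9 in Isl1CKO. So did those of marked strong windows with a P9 value of 1 or more, 367 and 309 against 229 and 268. This order is thus not particular to the members.

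Endocrine marker genes carried H3K27ac in the sorted cells. Of 10 endocrine markers, 9 had H3K27ac in their window, and 4 (Chga, Insm1, Isl1 and Pax6) were members. H3K27ac was present at 1 of 9 acinar, 4 of 8 ductal, 1 of 8 endothelial, 1 of 8 mesenchymal, 1 of 6 glial and 0 of 7 immune markers. Their summed H3K27ac was 1285 and 1075 CPM in Control and 1162 and 1115 in Isl1CKO for the endocrine list. For the acinar list it was 102 and 60.8 against 85.2 and 120, and for the ductal list 679 and 593 against 619 and 581. It was 40.9 and 17.0 against 68.5 and 56.9 for the endothelial, 19.3 and 2.74 against 18.3 and 8.43 for the mesenchymal and 34.0 and 41.1 against 73.0 and 27.4 for the glial list. The endothelial list was the 1 of these whose genotypes did not overlap, and its part in the results below was not tested. Summed H3K27me3 was lower in both Isl1CKO libraries over the mesenchymal list (2695 and 2705 CPM against 1987 and 2047), the glial list (1768 and 1666 against 1503 and 1374) and the ductal list (1952 and 1570 against 1485 and 1537), and overlapped over the endothelial, acinar and endocrine lists; the immune list was at 0 for both marks. Barx1 held the largest part of the mesenchymal sum (1571 and 1542 CPM against 1095 and 1200). Pdgfra was also lower in both Isl1CKO libraries, while Col1a2, Pdgfrb and Vim overlapped. Foxd3 held that of the glial sum (1087 and 1123 against 823 and 788), while Sox10 and Gfap overlapped. Onecut1 held that of the ductal sum (1478 and 1240 against 1087 and 1137), while Sox9 and Krt19 overlapped and Cftr was lower. Barx1 and Foxd3 are also on the Polycomb list below. The part of these cell types in the H3K27me3 results was not tested either.

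Transcription factors of islets and their progenitors made up 7 members of the 40 on that list (17.5%), among them Hes1, Insm1, Irx2, Isl1, Mafa and Pax6. A further 4 of the list were among the 88 strong windows with a P9 value of 1 or more, so such genes are not particular to the members. Isl1 had H3K27ac of 63.3 and 42.8 CPM in Control and 45.6 and 45.7 in Isl1CKO, which overlap; the mark at its start does not test whether the gene was deleted. Pax6, a paired-homeodomain regulator of islet hormone genes, had 243 and 227 against 224 and 216. Insm1, a zinc-finger factor of endocrine differentiation, had 121 and 59.7 against 94.3 and 129. Pax6 was slightly lower in both Isl1CKO libraries, and Insm1 overlapped.

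Hes1, the Notch target that holds back endocrine fate, had 133 and 83.9 against 83.7 and 109. Irx2, an Iroquois homeodomain factor of alpha cells, carried both marks, with H3K27ac of 110 and 66.9 against 114 and 121 CPM and H3K27me3 of 575 and 546 against 524 and 473. The Irx2 sums take in every region that overlaps the window. The H3K27ac promoter region assigned to Irx2 overlapped between genotypes, with 20.1 and 19.7 against 24.3 and 16.9 CPM, and the 5 H3K27me3 regions assigned to it had fitted log2 fold changes of 0.09 to 1.46, opposite in sign to the window sum. At Hes1 the groups overlapped.

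Mafa, the activator of insulin transcription in mature beta cells, had less H3K27ac in both Isl1CKO libraries. Its promoter H3K27ac region (chr15:75619911-75620704) had 29.3 and 47.7 CPM in Control and 15.2 and 9.14 in Isl1CKO. The log2 fold change was -1.70 (SE 0.69; edgeR quasi-likelihood adjusted p = 0.85), so it did not pass the test over all regions. A second region 6483 bases from the gene start (chr15:75612792-75613594) had 21 and 36 reads in Control and 1 and 0 in Isl1CKO. The ratio of Isl1CKO to Control there was 0.0263, with a 95% counting interval of 0.000655 to 0.153. That interval covers counting error only and not the spread between libraries. The fitted log2 fold change was -4.82 (SE 1.61; edgeR adjusted p = 0.846), so this region did not pass the test either. H3K27me3 covered the whole window and overlapped between genotypes, with 926 and 671 CPM in Control against 676 and 698.

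Of 37 hormone, secretion and identity genes, 1 was a member, Chga, the granule protein chromogranin A. It had 213 and 137 CPM of H3K27ac in Control and 210 and 141 in Isl1CKO, which overlap. Of 37 cell cycle genes, 1 was a member, Ccnd2, the D-type cyclin of beta cells. Ccnd2 carried both marks, with H3K27ac of 98.0 and 88.8 against 71.5 and 72.4 CPM and H3K27me3 of 293 and 373 against 232 and 238, both lower in the 2 Isl1CKO libraries. The 1 H3K27ac region assigned to Ccnd2 itself overlapped between genotypes, with 14.7 and 19.2 against 16.7 and 23.9 CPM.

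Neuronal and axon guidance genes gave 5 members of 42, Efna5, Nefm, Nrp2, Sema6a and Unc5b, and all 5 windows held both marks. Efna5, an ephrin ligand, had promoter H3K27me3 of 108 and 126 CPM in Control against 40.6 and 54.8 in Isl1CKO (log2 fold change -1.29, SE 0.39; edgeR adjusted p = 1.00). Nefm, a neurofilament subunit, had 43.2 and 99.9 against 11.5 and 33.6 (log2 fold change -1.67, SE 0.63; edgeR adjusted p = 1.00). The Isl1CKO values were the 2 lowest at each gene, and neither passed the test over all regions.

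Nrp2, a semaphorin co-receptor, had promoter H3K27me3 of 620 and 634 CPM against 517 and 448 (log2 fold change -0.38, SE 0.16; edgeR adjusted p = 1.00), and its H3K27ac region had 10 and 3 Control reads against 11 and 29 from Isl1CKO, or 7.72 and 1.64 against 16.7 and 20.4 CPM (log2 fold change 2.01, SE 1.13; edgeR adjusted p = 0.878). Sema6a, a transmembrane semaphorin, had H3K27ac of 64.8 and 55.9 against 77.6 and 74.5 CPM. Its H3K27me3 region held 6 and 51 Control reads against 0 and 1 from Isl1CKO, and 1 Control library holds most of those reads. This gives 0.0106 for Isl1CKO over Control (95% counting interval 0.000264 to 0.0615). The interval covers counting error only, and the fitted log2 fold change of -6.00 (SE 1.75) did not pass edgeR's test over all regions. At Nrp2 and Sema6a both Isl1CKO libraries had more H3K27ac and less H3K27me3 than both Control libraries. The promoter regions of Nefm had the same order, with H3K27ac of 46.3 and 48.2 against 48.7 and 85.0 CPM, a narrow margin for Isl1CKO replicate 1. Promoter H3K27ac of Efna5 overlapped, with 13.9 and 8.22 against 4.56 and 17.6 CPM. Unc5b, a netrin receptor, went another way, with window H3K27ac of 26.2 and 45.5 against 19.8 and 20.4 CPM and H3K27me3 of 364 and 231 against 262 and 267, which overlap.

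Signalling genes gave 3 members of 55, Hes1, Wnt11 and Wnt2b. A further 3 were among the 88 strong windows with a P9 value of 1 or more. Wnt2b, a secreted Wnt ligand, had H3K27me3 of 437 and 431 CPM in Control and 296 and 276 in Isl1CKO (promoter log2 fold change -0.60, SE 0.18; edgeR adjusted p = 1.00). Wnt11, another ligand, had 1166 and 837 against 1073 and 1002, which overlap.

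Polycomb-regulated developmental transcription factors gave 6 members of 86, Dlx1, En2, Foxf1, Pax1, Tbx18 and Wt1, all with H3K27me3 and no H3K27ac. A further 4 of the 86 were among the 88 strong windows with a P9 value of 1 or more. En2, a homeobox gene of the midbrain, had 1094 and 1208 CPM in Control against 939 and 814 in Isl1CKO, and its promoter region had a log2 fold change of -0.39 (SE 0.13; edgeR adjusted p = 1.00). Dlx1, a homeobox gene of forebrain neurons, had 969 and 929 against 795 and 692 (-0.35, SE 0.13; edgeR adjusted p = 1.00). Foxf1, a forkhead factor of gut mesenchyme, had 1507 and 1470 against 1288 and 1273, Tbx18, a T-box factor, 593 and 600 against 517 and 401, and Wt1, a zinc-finger factor of mesothelium, 238 and 280 against 204 and 183. Pax1, a paired-box factor of the skeleton, had 690 and 775 against 725 and 632. Both Isl1CKO libraries were lower at 5 of these 6 windows, and Pax1 overlapped. The same order was found at 53 of the 84 windows of the whole list with H3K27me3 (63.1%), at 45 of the 94 members with it (47.9%) and at 1069 of 3527 windows in all (30.3%). Over the list of 86 genes H3K27me3 summed to 76882 and 79500 CPM in Control and 67663 and 66009 in Isl1CKO, so the members share their order with the list. The 4 H3K27me3 regions assigned to Wt1 had fitted log2 fold changes of 0.05 to 0.88, opposite in sign to its window sum.

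Among the genes with the highest E14.5 values, the promoter H3K27ac region overlapped between genotypes at Hinfp, Phf10, Msh5, Mapk13, Rhot2, Fuom and Cited2. For Hinfp the mean was 22.3 CPM (SD 6.70, n = 2) for Control and 26.2 (SD 2.66, n = 2) for Isl1CKO, under the members' median although its ISL1 value was the highest. Summed over its window, Cyb5r3 had 169 and 104 against 189 and 213, higher in both Isl1CKO libraries. The Bbx window had 164 and 166 against 140 and 125, lower in both. The largest promoter region of Bbx had a log2 fold change of -0.69 (SE 0.37; edgeR adjusted p = 0.867). The Brd2 window had 285 and 206 against 441 and 358, higher in both Isl1CKO libraries. No H3K27ac region is assigned to Cyb5r3 or Brd2, so their window sums come from regions assigned to other genes. Abcg4 had both marks, with H3K27ac of 15.4 and 9.87 against 42.6 and 22.5 CPM (1.35, SE 0.72; edgeR adjusted p = 0.867) and H3K27me3 of 266 and 233 against 190 and 205. No region in these windows passed edgeR's test over all regions, and the window sums were not tested.

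**Figure D4:**
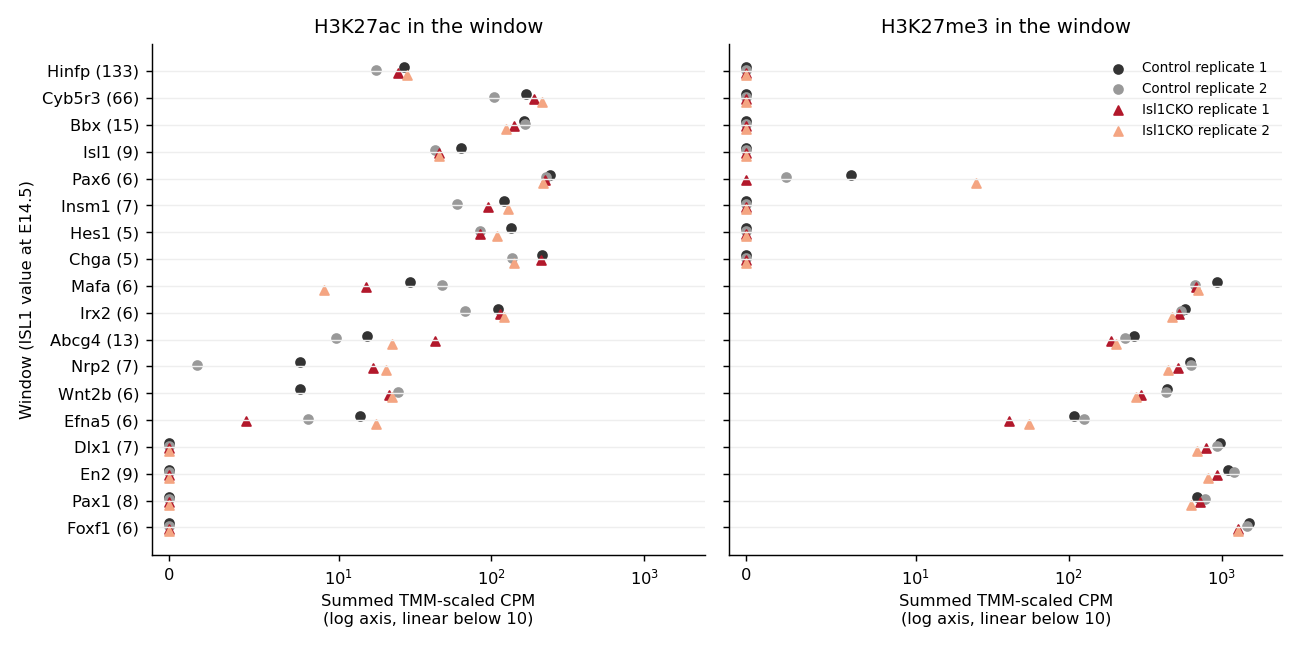
H3K27ac (left) and H3K27me3 (right) in 18 named windows, as TMM-scaled CPM summed over overlapping regions (log axis, linear below 10); circles are the 2 Control and triangles the 2 Isl1CKO libraries, and the ISL1 value at E14.5 is in brackets. Mafa H3K27ac is lower in both Isl1CKO libraries, and H3K27me3 at En2, Dlx1, Wnt2b, Efna5, Nrp2 and Foxf1 is lower in both.

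The genotype comparison asked whether the marks differed in Isl1CKO at genes whose promoter windows had a strong ISL1 value at E14.5 and 0 at P9. Library totals ran from 681047 to 1815511 counts for H3K27ac and from 1202276 to 2276887 for H3K27me3, and Control replicate 2 stood apart for H3K27ac, with correlations of 0.473 to 0.517 with the other libraries against 0.696 to 0.738 among those. The edgeR quasi-likelihood test called no H3K27ac region at an adjusted p under 0.05 among the 30036 tested (0%), so none of the 607 tested regions of member genes, whose smallest adjusted p was 0.838. At an unadjusted p under 0.05, 56 member regions (9.23%) passed, against 5.83% of all regions, with 38 higher in Isl1CKO (2.71% of all regions were) and 18 lower (3.12%). DESeq2 called 29 H3K27ac regions (0.0966%), none of them a member's. For H3K27me3, edgeR also called 0 of 19434 (0%), with 28 of 237 member regions (11.8%) at an unadjusted p under 0.05 against 4.34%. Of those 28, 27 were lower (2.98% of all regions were) and 1 was higher in Isl1CKO (1.35%). DESeq2 called 123 H3K27me3 regions (0.633%), 5 of them at member genes. By order alone, both Isl1CKO libraries exceeded both Control libraries at 150 member H3K27ac regions (24.7%; 18.1% of all) and fell short at 93 (15.3%; 19.4% of all). For H3K27me3 these counts were 29 (12.2%; 18.7% of all) and 52 (21.9%; 16.7% of all). A filter on low counts had removed 19 and 7 member regions beforehand.

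The authors' deposited table gives many more calls. At its adjusted p under 0.05 it has 11662 of 31479 H3K27ac regions (37%), 260 of the 626 at member genes (41.5%), and 7791 of 20086 H3K27me3 regions (38.8%), 104 of 244 at member genes (42.6%). In the authors' deposited table, 220 of the 260 were higher in Isl1CKO (35.1% of member regions, against 27.8% of all) and 40 lower (6.39% against 9.25%). Of the 104 there, 94 were lower (38.5% against 29.6%) and 10 higher (4.1% against 9.17%).

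With 1 promoter region per gene, the one with the highest mean count, H3K27ac could be compared at 262 members. Of these, 166 were higher and 96 lower in Isl1CKO by the fitted value (36.6% lower, against 45.2% of all genes), with a median log2 fold change of 0.17 against 0.07 over all 12386 genes. Both Isl1CKO libraries lay above both Control libraries at 75 (28.6%; 20.7% of all genes) and below at 29 (11.1%; 16.3% of all). The median without Control replicate 1 was 0.43, against 0.25 over all genes. Without Control replicate 2, 45.0% of members and 49.5% of all genes were lower. Member promoters also carried more H3K27ac, with a median log2 CPM of 6.25 against 5.30. All genes were then split by level into 3 classes of like size. In the highest class, which held most members, the median log2 fold change was 0.20 for members and 0.18 for all genes. In the middle class it was -0.08 for 42 members against 0.08, and in the lowest -0.04 for 44 against -0.16, so at like levels the members did not lean 1 way.

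H3K27me3 leaned the other way. Of 73 members with a promoter region, 66 were lower and 7 higher in Isl1CKO by the fitted value, with a median log2 fold change of -0.34 against -0.14 over 4877 genes, of which 61.7% were lower. The 2 Isl1CKO values were the lowest of the 4 at 32 (43.8%; 27% of all genes) and the highest at none (11.1% of all). By library, the median promoter level of these members was 197 and 208 CPM in Control and 168 and 159 in Isl1CKO. Scaled by library totals, which moved the median of all genes to -0.03, 55 of the 73 were lower (75.3%, against 52.2% of all genes) and the members' median was -0.21. Without Control replicate 1, 51 were lower (69.9% against 55.8%). Their median level was a log2 CPM of 7.56 against 5.40 over all genes. In the highest of 3 level classes, which held 46 of the 73, the median log2 fold change was -0.20 for members and -0.17 for all genes. It was -0.77 against -0.17 in the middle class and -0.80 against 0.07 in the lowest, with only 15 and 12 members, so the gap between members and all genes was small where most members lie and wide in the 2 thinly filled classes.

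**Figure D5:**
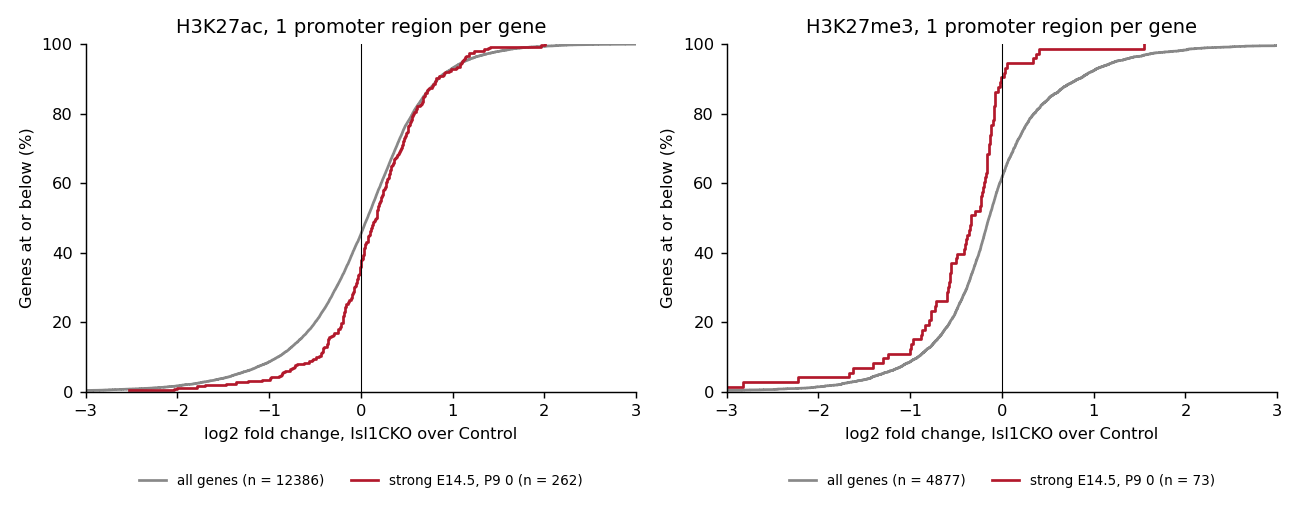
Cumulative percent of genes by log2 fold change, Isl1CKO over Control, with 1 promoter region per gene (2 libraries per genotype), for H3K27ac (left) and H3K27me3 (right); red is the strong E14.5 windows with a P9 value of 0, grey all genes with a tested promoter region. The red H3K27me3 curve passes 90.4% at 0, against 61.7% for all genes.

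The regions of member genes with the smallest p on each side lay mostly outside promoters. H3K27ac at an intron of Ctif, a translation factor, had 4 and 9 reads in Control and 26 and 40 in Isl1CKO (log2 fold change 3.02, SE 0.84; edgeR adjusted p = 0.838). An intron of Man1c1, a mannosidase of the Golgi, had 27 and 37 against 62 and 79 (1.85, SE 0.52; edgeR adjusted p = 0.838), and an intron of Ksr2, a scaffold of the Ras pathway, 5 and 11 against 22 and 46 (2.69, SE 0.81; edgeR adjusted p = 0.846). All 3 were higher in both Isl1CKO libraries, as the rule that chose them required, and the totals of these libraries differ.

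On the lower side, besides the region near Mafa, an intron of Adgra2, an adhesion receptor, had 10 and 55 Control reads against 0 and 1 from Isl1CKO, which gives a ratio of 0.0231 (95% counting interval 0.000575 to 0.133). An intron of Crispld2, a secreted protein, had 10 and 42 against 0 and 1, a ratio of 0.0288 (0.000717 to 0.168). These intervals cover counting error only and not the spread between libraries. The fitted log2 fold changes at the Adgra2 and Crispld2 introns were -5.12 (SE 1.59) and -4.82 (SE 1.71), each with an edgeR adjusted p of 0.846. At both, Control replicate 2, the library that stands apart, held most of the reads. Without Control replicate 1, edgeR's adjusted p was 0.00916 for Adgra2, 0.0344 for Crispld2, 0.0413 for Ctif and 0.0148 for Man1c1, with 1 Control library left.

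For H3K27me3, an intron of Cacna2d2, a calcium channel subunit, had 128 and 91.0 CPM in Control and 153 and 197 in Isl1CKO. An intron of Cdh22, a cadherin, had 239 and 191 against 322 and 265, and an intron of Skor2, a co-repressor, 7.93 and 2.35 against 17.1 and 25.1. The 3 were higher in both Isl1CKO libraries, again by the rule that chose them. Their log2 fold changes were 0.68 (SE 0.30), 0.45 (SE 0.22) and 2.06 (SE 1.02). None passed edgeR's test over all regions, with an unadjusted p of 0.0435, 0.0662 and 0.0667. The authors' deposited log2 fold changes there were 0.107, -0.125 and 1.64. The promoter of Tymp, thymidine phosphorylase, had 216 and 348 CPM in Control and 168 and 116 in Isl1CKO (log2 fold change -0.99, SE 0.29; edgeR adjusted p = 1.00). A region annotated as 3′ UTR and assigned to Tmem115 had 190 and 209 reads against 172 and 123 (log2 fold change after scaling -1.20, SE 0.35; edgeR adjusted p = 1.00). The promoter region of Sema6a, described above, was the other of the 3 lowest. With DESeq2 the adjusted p was 0.0335 at Efna5, 0.047 at Tmem115 and 0.0266 at Wnt2b, so the call at these 3 H3K27me3 regions depends on the tool.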

How the data were processed

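ISL1, H3K27ac and H3K27me3 were profiled by CUT&Tag. Per the submitters' processing notes, the authors used GRCm39, edgeR 4.0.16 and ChIPseeker 1.38.0, with MACS2 2.2.6, Bowtie2 2.3.5.1 and Picard 2.27.4. The deposited histone tables give raw read counts per region for each library, with log2 fold changes and adjusted p-values from the authors' own comparison. The deposited ISL1 values are whole numbers per promoter window, treated as a score of unstated unit. Chromosome labels of the histone files follow alphabetical order; 7.47% (H3K27ac) and 9.23% (H3K27me3) of regions matched their gene's chromosome as written and 100% after relabelling.

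Counts were tested here with edgeR 4.0.16 in R 4.3.3 (filterByExpr, TMM, quasi-likelihood, Benjamini-Hochberg over all regions of a mark, 2 libraries against 2), and with DESeq2 1.42.0 as an alternative; the code was tested on simulated data. Window levels are TMM-scaled CPM. Whether a promoter holds a motif was read on both strands. The windows, gene lists and tests were chosen with earlier results of these data known. Genes named are the 15 highest E14.5 values, members of 6 functional lists, and the 3 regions with the smallest p on each side per mark; fold changes were fitted per region, so sums over a window have none, and are printed for a part of the regions whose genotypes did not overlap. The values of 1 listed member are not reported here. Nothing says that same-numbered libraries are matched, and their deviations correlated by 0.049 (H3K27ac) and -0.014 (H3K27me3). Library depth limits small regions, and with 2 libraries per genotype the spread is poorly known. The alternatives were other scalings, filters, tools, joins and thresholds and leaving out each library.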

Additional observations from a re-analysis of the deposited data

How the results depend on the processing

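The rule gave 783 windows with a minimum E14.5 value of 4 and 86 with 7. Joined by gene identifier, the share of members with H3K27ac was 75.8%, and 81.3% in windows of 6000 bases. By overlap with the window it was 87.4%. For H3K27me3 the share joined by gene identifier was 24.5%, with 19.6% for promoter regions only and 29.4% in windows of 6000 bases. The 6000-base limit and the authors' fold changes were alternatives chosen after seeing the data. The number of H3K27ac regions called was 29 with DESeq2, from 0 to 2189 when leaving out 1 library (2189 without Control replicate 1, 6.96% of regions, with 55 at member genes, 8.79% of theirs, and 15 without Control replicate 2) and 11662 in the authors' deposited table. For H3K27me3 it was 123 with DESeq2, from 0 to 10 when leaving out 1 library and 7791 in the authors' deposited table.

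The H3K27ac median log2 fold change of member promoters was 0.086 to 0.43 when leaving out 1 library and 0.75 in the authors' deposited table. The H3K27me3 median was -0.41 to -0.24 when leaving out 1 library, -0.21 with library totals, -0.22 over all promoter regions, -0.23 for regions that overlap the window, -0.25 and -0.39 at E14.5 minima of 4 and 7, and -0.83 in the authors' deposited table. It was below 0 under every alternative run. The H3K27me3 median over all genes was also below 0 under each scaling, filter, tool and left-out library. It was -0.03 with library totals and -0.68 in the authors' deposited table, so the sign alone does not set the members apart. With the replicate number as a block, 0 regions were called for either mark, and the members' medians were 0.17 (H3K27ac) and -0.28 (H3K27me3). The cause of these shifts was not tested. Named fold changes were rerun only for the 28 regions whose genotypes did not overlap. None reversed in those reruns, which that choice made likely beforehand, so it is no sign of stability. The authors' deposited fold changes were not part of the reruns. They have the opposite sign at the Pax6 H3K27ac region (-0.097 here, 0.547 deposited) and the Cdh22 H3K27me3 region (0.45 here, -0.125 deposited). With DESeq2 the adjusted p passed the threshold at the Efna5, Tmem115 and Wnt2b H3K27me3 regions, as given above. A lone library left in a group is assumed to vary like the others.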
